A study of Homo sapiens with 6 samples.

Results

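RAB GTPases were taken as the probe sets whose single annotated gene symbol was RAB followed by a number and, for some members, a letter, which gave 138 of the 54613 probe sets on the arrays and 57 of 19775 genes. RNA was measured on 3 arrays of LP-1/Cfz cells and 3 arrays of parental LP-1 cells. LP-1 is an established human multiple myeloma line, a cancer of antibody-secreting plasma cells, and LP-1/Cfz is the line derived from it that resists 12 nM carfilzomib, an inhibitor of the proteasome. LP-1/Cfz cells had grown for 1 week without the drug when they were profiled, LP-1 cells had not been selected in it, and both were kept in RPMI medium with GlutaMAX and fetal bovine serum (4% in the labels). Resistance was obtained by stepwise exposure of 1 parental line, so differences between these lines need not hold for other resistant lines. Nothing in the sources used here says whether the 3 samples of a line were separate cultures, and p-values therefore cover only the variation among these samples, which could be technical.

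RAB proteins are small GTPases of the RAS superfamily that act as switches in membrane traffic. Each binds a particular set of membranes through lipid groups added by the RAB geranylgeranyl transferase, is turned on by a guanine nucleotide exchange factor (GEF), recruits effectors such as tethers and motor adaptors, is turned off by a GTPase-activating protein (GAP) and is taken off the membrane by a GDP dissociation inhibitor (GDI). A plasma cell depends on the secretory arm of this system for antibody release, whereas the endosomal arm sorts, recycles or degrades what is taken up from the surface.

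Of the 57 RAB genes, 12 passed at an adjusted p under 0.05 by limma, adjusted after Benjamini and Hochberg over the whole set of genes, 8 with higher and 4 with lower values in LP-1/Cfz. Over all genes tested, 6.72% passed as higher and 10.0% as lower, so that 21.1% of RAB genes and 16.7% of all genes passed in either direction. The largest rises were those of RAB3B, which acts in regulated exocytosis, and RAB39B, an X-linked gene mostly studied in neurons, at log2 fold changes of 1.08 and 0.92. The largest falls were those of RAB27A, which docks secretory lysosomes and exosome-forming compartments at the plasma membrane, and RAB35, which acts in fast recycling to the surface, at -0.57 and -0.44. The median log2 fold change was 0.03 for RAB genes and 0.02 for all genes. Values of the 3 LP-1/Cfz and the 3 LP-1 arrays did not overlap for 28 of the 57 RAB genes, against 35.9% of all genes. The family was not tested against other genes, and its members are described singly.

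The secretory members were set beside the endosomal ones. Among the 24 measured secretory RAB genes, 3 rose (RAB3B, RAB6A and RAB1A) and 3 fell (RAB27A, RAB30 and RAB36), with a median log2 fold change of -0.0046 and a range from -0.57 to 1.08. Among the 25 endosomal genes, 3 rose (RAB15, RAB9B and RAB29) and 1 fell (RAB35), with a median of 0.02 and a range from -0.44 to 0.50. RAB4B is counted here by the probe set that names it alone, and it was lower on others that also name MIA-RAB4B, given below. The remaining 8 genes, whose site of action is less clear, held RAB39B and RAB40B, which rose, and none that fell. Within the secretory class, members of the endoplasmic reticulum (ER) and Golgi apparatus gave 2 higher and 2 lower of 12, and members of exocytosis 1 higher and 1 lower of 12. Within the endosomal class, 0 of 7 early endosome genes passed, 2 of 9 recycling genes did (1 in each direction), and 2 of 9 genes of late endosomes and lysosomes did, both higher. At an unadjusted p under 0.05 by limma, 22 of the 57 RAB genes were counted, 14 of the 24 secretory, 5 of the 25 endosomal (0 of the 7 early endosome genes) and 3 of the 8 others, against 29.8% of all genes. The difference between the classes was not tested.

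**Figure D1:**
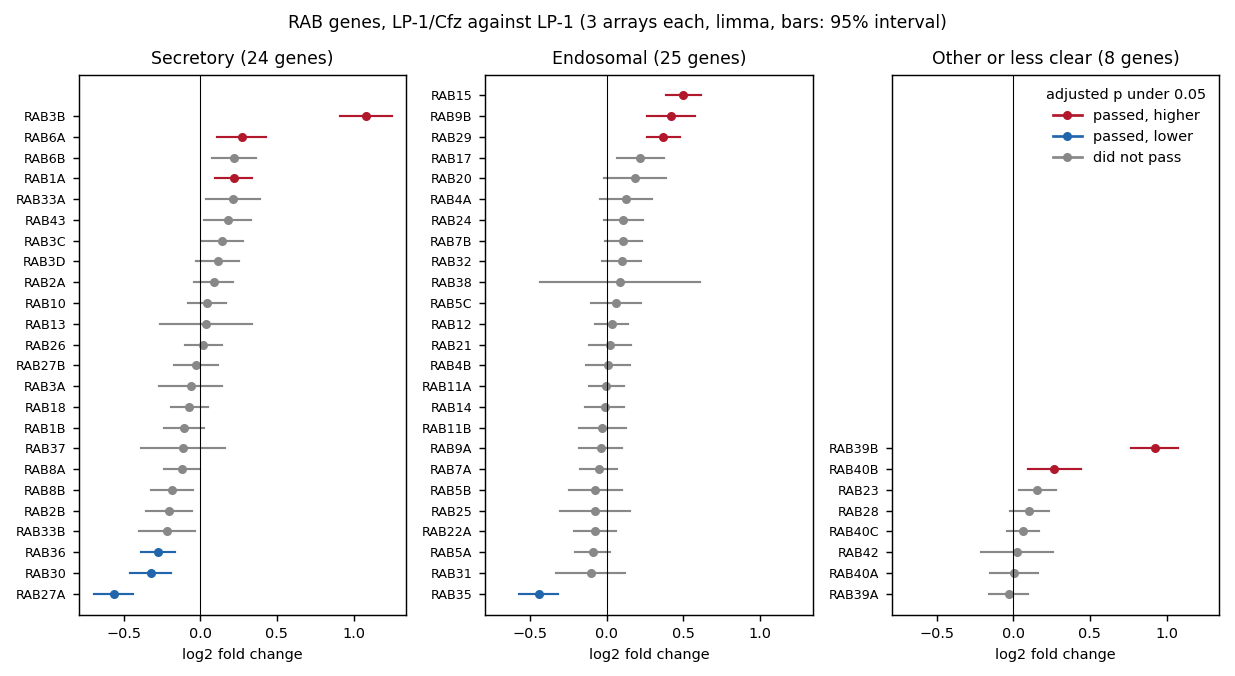
Log2 fold change (x axis) of every measured RAB gene, LP-1/Cfz against LP-1, in 3 panels for 24 secretory, 25 endosomal and 8 other genes. Points are the limma estimates from 3 arrays per line, bars are 95% confidence intervals, and red and blue mark genes that passed as higher and lower. RAB3B and RAB27A lie at the ends of the secretory panel, and most points of each panel lie near 0.

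The arrays behind these values were not equal in spread. The interquartile range of the values over probe sets was 0.338 on LP-1/Cfz replicate 3 and lay between 0.230 and 0.264 on the other 5 arrays. That array correlated with its group at 0.891 and 0.903 over probe sets, and limma's array weights gave it 0.389, the lowest of the 6. Each probe set was centered on a baseline that the sources used here do not give. A value therefore tells how arrays differ and not how abundant an RNA was, and genes cannot be ranked by level. Of 10 plasma cell markers, 3 rose (SDC1 by 0.38, TNFRSF17 by 0.27 and MZB1 by 0.39 on the log2 scale) and 2 fell (CD38 with -1.07 and SLAMF7 with -2.17). Of the markers of other cells, 1 of 6 for T and NK cells fell (GNLY, -0.30) by limma at an adjusted p under 0.05. GNLY passed as the mean of its 2 probe sets, of which 0 passed over all probe sets. Of the myeloid and stromal markers, 0 of 5 and 0 of 5 passed by limma at an adjusted p under 0.05. At an unadjusted p under 0.05, 1 myeloid and 0 stromal ones did. Whether any of these markers was present or absent cannot be read from centered values. In such bulk RNA, a change in the share of cells that express a gene cannot be told apart from a change of its RNA within cells.

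The promoters of 4 members are given first, because RAB3B and RAB29 rose, RAB27A and RAB35 fell, and each passed on several probe sets. They are 300 bases of GRCh38.p14 from RefSeq, 250 before and 50 after the transcription start, all on the minus strand and written 5′ to 3′ along the gene. The windows are RAB3B at chr1:51990651-51990950, RAB29 at chr1:205775433-205775732, RAB27A at chr15:55319074-55319373, which is the outermost of its 5 listed starts, and RAB35 at chr12:120116704-120117003. Capitals mark the AP-1-like core TGANTCA in RAB3B and the palindromic E-box CACGTG in RAB29.
RAB3B: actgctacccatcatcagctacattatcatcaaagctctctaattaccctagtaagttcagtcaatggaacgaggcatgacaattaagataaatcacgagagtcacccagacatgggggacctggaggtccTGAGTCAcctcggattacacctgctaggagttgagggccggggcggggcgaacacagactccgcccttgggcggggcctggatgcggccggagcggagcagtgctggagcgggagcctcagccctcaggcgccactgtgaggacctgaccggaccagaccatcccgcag
RAB29: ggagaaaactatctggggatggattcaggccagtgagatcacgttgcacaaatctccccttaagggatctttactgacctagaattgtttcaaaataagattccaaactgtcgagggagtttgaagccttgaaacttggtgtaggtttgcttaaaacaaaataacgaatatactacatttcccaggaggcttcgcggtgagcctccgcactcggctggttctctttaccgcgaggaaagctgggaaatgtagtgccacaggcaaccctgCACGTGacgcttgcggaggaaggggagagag
RAB27A: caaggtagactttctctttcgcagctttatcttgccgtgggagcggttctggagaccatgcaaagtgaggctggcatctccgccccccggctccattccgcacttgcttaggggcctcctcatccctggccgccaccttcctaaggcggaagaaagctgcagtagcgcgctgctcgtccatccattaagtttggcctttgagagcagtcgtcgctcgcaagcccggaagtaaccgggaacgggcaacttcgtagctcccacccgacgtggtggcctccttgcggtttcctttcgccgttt
RAB35: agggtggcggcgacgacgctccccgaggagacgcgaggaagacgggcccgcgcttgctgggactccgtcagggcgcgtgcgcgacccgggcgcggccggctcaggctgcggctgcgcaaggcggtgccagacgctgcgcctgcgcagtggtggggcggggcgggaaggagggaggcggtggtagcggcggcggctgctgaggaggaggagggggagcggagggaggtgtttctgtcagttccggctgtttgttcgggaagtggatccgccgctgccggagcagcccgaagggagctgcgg
RAB3B held the core TGAGTCA with its first base at position -119 from the start, and RAB29 held CACGTG with its first base at position 19. RAB35 was the richest of the 4 in CpG, with 39 CpG and 74% of G and C, against medians of 24.5 and 64.7% over 64 windows of RAB genes and of 14 and 58.7% over all 35116 windows. Windows were listed for 45 of the 57 RAB genes, 8 of them among the 12 that passed.

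In all, 4 motifs were searched on both strands of these windows. TGANTCA, a core of the kind that NRF2 and AP-1 factors bind, was added after the RAB3B sequence had been seen, and it stood in 6 of 64 RAB windows (9.38%) and 7.71% of all windows. Among genes that passed it was found in RAB3B, which rose, and at another start of RAB27A, which fell. TGACNNNGC, the core of the antioxidant response element, which can overlap TGANTCA, stood in 12 of 64 RAB windows (18.8%) and 13.3% of all, among them RAB40B, which rose, and RAB30, which fell. CACGTG stood in 9.38% of RAB windows and 7.26% of all, with RAB29 the one gene that passed. TGATGNAA, the core of ATF4 elements, stood in 1 RAB window, that of RAB28 (log2 fold change 0.11, adjusted p = 0.245 by limma), against 3.62% of all windows. A match is a description of the letters and not a binding site, and a missing match says nothing of a factor.

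RAB3B had the largest log2 fold change of the members when the probe sets of a gene were averaged. It belongs to the RAB3 group, which prepares secretory vesicles for regulated release. On LP-1/Cfz replicates 1, 2 and 3 its gene value, the mean of its probe sets on the centered log2 scale, was 0.05, 0.32 and 0.14. On the LP-1 arrays it was -0.94, -0.87 and -0.91. All 3 LP-1/Cfz arrays lay above all 3 LP-1 arrays, with means of 0.17 ± 0.14 and -0.91 ± 0.04 (SD, n = 3). The log2 fold change was 1.08 with a standard error (SE) of 0.07 and an adjusted p of 6.56e-05 by limma, a 2.11-fold difference. Of its 5 probe sets, 4 rose, with log2 fold changes of 1.73, 1.37, 1.01 and 0.93. The other probe set gave 0.36 with an adjusted p of 0.167 by limma, and its groups overlapped. With the median of the probe sets on each array in place of the mean, the log2 fold change of RAB3B was 0.62 (adjusted p = 0.00472 by limma). Probe sets have separate baselines, so this median can fall on different probe sets in the 2 lines. It therefore does not rank RAB3B against RAB39B (0.92), and the middle one of the 5 probe set changes of RAB3B was 1.01.

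The paralogues of RAB3B gave smaller values. RAB3A, the neuronal member of the group, had a log2 fold change of -0.06 (adjusted p = 0.688 by limma). RAB3C did not pass as a gene (0.14, adjusted p = 0.132), but 1 of its 4 probe sets rose by 0.37 (adjusted p = 0.0235 over all probe sets). RAB3D, known from zymogen and other storage granules, did not pass as a gene either (0.11, adjusted p = 0.269), and 1 of its 2 probe sets rose by 0.28 (adjusted p = 0.0321 by limma). Differences between paralogues were not tested. Among proteins that act on RAB3, the exchange factor MADD (-0.0056), the GAP subunits RAB3GAP1 (-0.10) and RAB3GAP2 (0.05) and the effectors RIMS1 (0.11), RIMS2 (-0.16) and RPH3A (-0.00058) did not pass.

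RAB27A fell on every probe set. This GTPase brings lytic granules, melanosomes and exosome-forming compartments to the cell cortex, and its loss causes Griscelli syndrome. Its gene value was -0.68, -0.67 and -0.81 on the LP-1/Cfz arrays and -0.14, -0.13 and -0.19 on the LP-1 arrays. The LP-1/Cfz arrays were all lower, with LP-1/Cfz replicate 3 the lowest. The log2 fold change was -0.57 (SE 0.06, adjusted p = 4.48e-04 by limma), and those of its 5 probe sets ran from -0.71 to -0.49, all passed. All 5 are of the array's _s_at or _x_at kinds, which can match more than 1 transcript or gene. Its closest relative RAB27B, also an exocytosis factor, had a log2 fold change of -0.03 (adjusted p = 0.801). Among the effectors of RAB27 proteins, EXPH5 rose by 0.33 (adjusted p = 0.00760 by limma), a gene named after its value was seen. SYTL1, SYTL2, SYTL3, SYTL4, SYTL5, MLPH, MYRIP, RPH3AL and UNC13D did not pass as genes, with log2 fold changes from -0.05 to 0.15. Of their probe sets, 1 of the 4 of SYTL3 and 1 of the 2 of SYTL5 passed as higher.

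The other secretory members that passed act at the Golgi apparatus or between it and the ER. RAB30, which helps keep the Golgi in shape, gave -0.19, -0.14 and -0.25 on the LP-1/Cfz arrays and 0.15, 0.05 and 0.19 on the LP-1 arrays, with no overlap. Its log2 fold change was -0.32 (SE 0.06, adjusted p = 0.00747 by limma). Only 2 of its 5 probe sets fell, by 0.63 and 0.70, and the other 3 gave -0.02, -0.09 and -0.17 and did not pass. With the median of the probe sets on each array, RAB30 gave -0.22 and no longer passed (adjusted p = 0.0524 by limma). That median too can fall on different probe sets in the 2 lines. RAB36, which has been placed at the Golgi and in the positioning of late endosomes, was 0.09, 0.10 and 0.14 on the LP-1/Cfz arrays and 0.42, 0.35 and 0.39 on the LP-1 arrays. Its groups did not overlap, and its 1 probe set, an _s_at one, gave a log2 fold change of -0.28 (SE 0.05, adjusted p = 0.00627 by limma).

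RAB6A and RAB1A rose by less, and both calls were lost without some of the arrays. RAB6A, which directs traffic within and out of the Golgi, gave 0.17, 0.19 and 0.10 on the LP-1/Cfz arrays and -0.15, -0.22 and 0.01 on the LP-1 arrays. Its log2 fold change was 0.27 (SE 0.07, adjusted p = 0.0328 by limma) from 1 probe set, which by itself had an adjusted p of 0.0623 over all probe sets. A further 4 probe sets that name RAB6A together with RAB6D, and in 1 case RAB6C, gave log2 fold changes from -0.07 to 0.01 and did not pass, so that the RAB6A value rests on the probe set that names it alone. RAB1A, which moves vesicles from ER to Golgi and takes part in autophagy, gave 0.35, 0.30 and 0.25 on the LP-1/Cfz arrays and 0.10, 0.12 and 0.03 on the LP-1 arrays. Its groups did not overlap, the log2 fold change was 0.22 (SE 0.05, adjusted p = 0.0278 by limma), and 1 of its 4 probe sets passed, at 0.33.

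Left-out arrays changed these calls as follows, with adjusted p by limma. RAB6A did not pass without LP-1 replicate 1 (0.110), LP-1 replicate 2 (0.109), LP-1/Cfz replicate 1 (0.0889) or LP-1/Cfz replicate 2 (0.0844). Of the left-out fits, RAB1A passed only in the one without LP-1/Cfz replicate 3 (0.0232), and its adjusted p was 0.0812, 0.0616 and 0.116 without LP-1 replicates 1, 2 and 3, and 0.0896 and 0.0662 without LP-1/Cfz replicates 1 and 2. The relatives RAB1B (-0.11, adjusted p = 0.260) and RAB6B (0.22, adjusted p = 0.0501) did not pass. The remaining ER and Golgi members, RAB2A, RAB2B, RAB18, RAB33A, RAB33B and RAB43, gave log2 fold changes from -0.22 to 0.21, and none passed. RAB8A, RAB8B, RAB10, RAB13, RAB26 and RAB37, the other exocytosis members, gave -0.18 to 0.04 and did not pass.

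**Figure D2:**
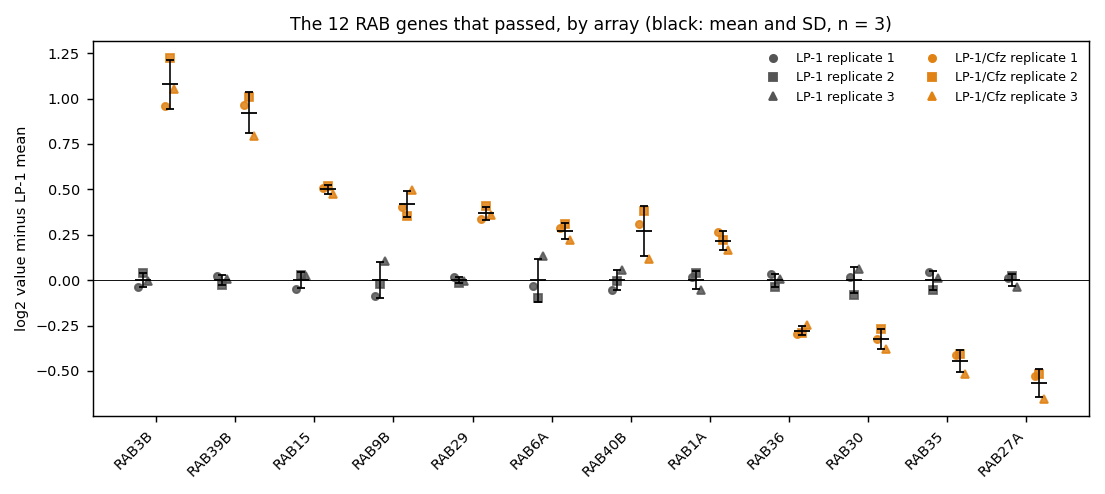
Log2 values minus the LP-1 mean (y axis) of the 12 RAB genes that passed, by array. Gray and orange symbols are the 3 LP-1 and the 3 LP-1/Cfz replicates, and black bars are the mean and SD of each line (n = 3). The groups of every gene shown are separate, and RAB6A, RAB40B and RAB1A have the narrowest gaps.

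Of the endosomal members, RAB15 had the largest change. It acts on early and recycling endosomes, where it slows the return of receptors to the surface. Its gene value was 0.64, 0.65 and 0.61 on the LP-1/Cfz arrays and 0.09, 0.16 and 0.16 on the LP-1 arrays. The 2 lines were far apart for the spread within either of them, with a log2 fold change of 0.50 (SE 0.05, adjusted p = 4.27e-04 by limma). Both of its probe sets rose, by 0.56 and 0.44.

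RAB35 was the endosomal member that fell on probe sets naming a gene alone. It controls a fast route from endosomes to the plasma membrane and is needed for cytokinesis. Its gene value was -0.19, -0.19 and -0.30 on the LP-1/Cfz arrays and 0.26, 0.16 and 0.23 on the LP-1 arrays, with no overlap. The log2 fold change was -0.44 (SE 0.06, adjusted p = 0.00140 by limma), and all 3 probe sets fell, with log2 fold changes of -0.31, -0.43 and -0.59. The exchange factors that turn RAB35 on are DENND1A, DENND1B and DENND1C. DENND1B rose by 1.02 (SE 0.06, adjusted p = 4.55e-05) on 6 of 6 probe sets, and DENND1A rose by 0.23 (adjusted p = 0.0374 by limma), with 1 probe set at 0.56 and the other at -0.10. DENND1C gave 0.22 and did not pass (adjusted p = 0.201). Among GAPs that act on RAB35, TBC1D10A, TBC1D10B and TBC1D10C gave -0.15, 0.15 and -0.06 and did not pass.

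RAB9B and RAB29 belong to the late endosome and lysosome list. RAB9B, a close relative of the late endosome to Golgi factor RAB9A, was 0.10, 0.06 and 0.20 on the LP-1/Cfz arrays and -0.38, -0.32 and -0.19 on the LP-1 arrays. Its groups did not overlap, and its 1 probe set gave a log2 fold change of 0.42 (SE 0.07, adjusted p = 0.00455 by limma). RAB9A gave -0.04 (adjusted p = 0.723). RAB29, which recruits the kinase LRRK2 to Golgi and lysosomal membranes, was 0.50, 0.57 and 0.52 on the LP-1/Cfz arrays and 0.18, 0.14 and 0.16 on the LP-1 arrays. Every LP-1/Cfz value lay above every LP-1 value, and the log2 fold change was 0.37 (SE 0.05, adjusted p = 0.00155 by limma). Its probe sets gave 0.45, 0.41 and 0.25, of which the last did not pass (adjusted p = 0.0557), and LRRK2 itself gave -0.05 (adjusted p = 0.742).

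The best-known endosomal markers did not pass. RAB5A, RAB5B and RAB5C, which define early endosomes, gave log2 fold changes of -0.09, -0.07 and 0.06. RAB7A, the late endosome and lysosome GTPase, which had 7 probe sets, the most of any member, gave -0.05, with a 95% confidence interval from -0.17 to 0.07. RAB11A and RAB11B of recycling endosomes gave -0.0032 and -0.03. Over the family, 45 genes did not pass, and for 32 of them the 95% confidence interval lay within 0.3 log2 units on either side of 0. The widest interval was that of RAB38, a lysosome-related organelle factor, from -0.43 to 0.61. Its value was -0.48, -0.56 and 0.32 on LP-1/Cfz replicates 1, 2 and 3, the last of them the array with the widest spread, and -0.58, -0.23 and -0.19 on the LP-1 arrays.

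Among the members with a less clear site, RAB39B rose on both of its probe sets, by 0.92 each. Loss of RAB39B causes an X-linked intellectual disability with early parkinsonism. Its gene value was 1.16, 1.21 and 0.99 on the LP-1/Cfz arrays and 0.22, 0.17 and 0.20 on the LP-1 arrays. The LP-1/Cfz arrays were all higher, LP-1/Cfz replicate 3 the least so, and the log2 fold change was 0.92 (SE 0.07, adjusted p = 8.25e-05 by limma), a 1.89-fold difference. Its relative RAB39A, which acts on phagosomes and lysosomes, gave -0.03 (adjusted p = 0.766).

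RAB40B carries a SOCS box, by which it joins a ubiquitin ligase. It was 0.92, 0.99 and 0.73 on the LP-1/Cfz arrays and 0.56, 0.61 and 0.67 on the LP-1 arrays. LP-1/Cfz replicate 3 lay close above the highest LP-1 array, and the log2 fold change was 0.27 (SE 0.08, adjusted p = 0.0479 by limma). Of its 3 probe sets, 1 rose by 0.55 and the others gave 0.18 and 0.07 and did not pass. Of the fits that left out an array, the call held only in the one without LP-1/Cfz replicate 3 (0.34, adjusted p = 0.00828 by limma). Without LP-1 replicates 1, 2 and 3 the adjusted p was 0.148, 0.129 and 0.0880, and without LP-1/Cfz replicates 1 and 2 it was 0.126 and 0.114. RAB40A (0.0044) and RAB40C (0.06), which share the SOCS box, did not pass.

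On the level of probe sets, 26 of the 138 passed, 15 higher and 11 lower, against 4.25% and 6.76% of all probe sets. At the fold of 1.7 or more that the study used, 6 RAB probe sets were counted, all higher in LP-1/Cfz and all of RAB3B or RAB39B, against 1.59% of all probe sets in either direction. Of the 35 members with more than 1 probe set, 23 had log2 fold changes of 1 sign on all of them, and 0 had probe sets that passed in both directions. Of the members with more than 1, RAB27A, RAB35, RAB15 and RAB39B passed on every probe set they have, whereas the calls of RAB40B and RAB1A came with 1 passing probe set each.

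**Figure D3:**
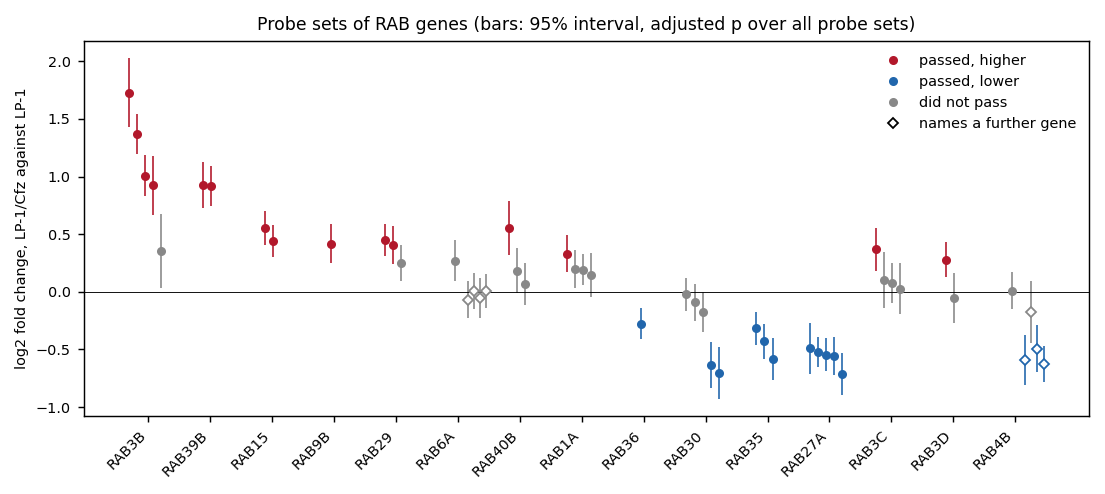
Log2 fold change (y axis) of the single probe sets of the 12 RAB genes that passed and of RAB3C, RAB3D and RAB4B. Filled circles name the gene alone, open diamonds name a further gene as well, bars are 95% confidence intervals, and red and blue passed over all probe sets. The 5 probe sets of RAB27A all lie below 0, the diamonds of RAB6A lie near 0, and 3 of the 4 diamonds of RAB4B are low.

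Probe sets that name a RAB gene together with another gene were kept out of the member counts, and 11 such probe sets exist. RAB4B, a fast recycling factor, gave 0.01 (adjusted p = 0.954) on the probe set that names it alone. On the 3 probe sets that name it together with the read-through transcript MIA-RAB4B, the values were lower in LP-1/Cfz. On the one with the largest change they were -0.76, -0.75 and -0.74 in LP-1/Cfz and -0.21, -0.04 and -0.12 in LP-1. The groups did not overlap on any of the 3, and the log2 fold changes were -0.59, -0.49 and -0.63 with adjusted p of 0.00613, 0.0100 and 9.40e-04 by limma. A probe set that names RAB4B with EGLN2 gave -0.18 (adjusted p = 0.407). Which transcript these probe sets read cannot be told from the values.

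The cycle of a RAB depends on other proteins, and 138 of 144 listed regulators and effectors were measured. Of these, 20 rose and 14 fell, 24.6% in all against 16.7% of all genes, with a median log2 fold change of 0.02. Without LP-1 replicate 3 the count fell to 22, of which 13 were higher and 9 lower. The share of all genes passing in that fit is not given here. Of the prenylation and GDI list, 1 of 7 passed. That gene was GDI2, which extracts RAB proteins from membranes, at -0.19 (SE 0.05, adjusted p = 0.0305 by limma). Of its 2 probe sets, 0 passed over all probe sets. Its call held in 1 of 6 fits that left out an array. That fit was the one without LP-1/Cfz replicate 3 (adjusted p = 0.0481 by limma), and adjusted p was up to 0.115 in the others.

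Among 46 GEF genes, 7 rose and 6 fell. DENND1B, named above, was 0.22, 0.31 and 0.12 on the LP-1/Cfz arrays and -0.74, -0.80 and -0.88 on the LP-1 arrays, with no overlap. DENND5A, which is linked to RAB6 and RAB39 proteins, rose by 0.63 (adjusted p = 5.55e-04 by limma) on its 1 probe set. The TRAPP complexes, which activate RAB1 and RAB11, had 14 measured subunits. Of these, 3 rose (TRAPPC4 by 0.28, TRAPPC3 by 0.26 and TRAPPC5 by 0.18), 2 fell (TRAPPC10 with -0.52 and TRAPPC6A with -0.35) and 9 did not pass. TRAPPC5 had an adjusted p of 0.0455 by limma from 1 probe set, which did not pass over all probe sets. RABGEF1, the exchange factor of RAB5, rose by 0.24. Of the others that fell, DENND4A acts on RAB10 (-0.42), HPS1 on RAB32 and RAB38 (-0.39), MON1B on RAB7 (-0.32) and RIN3 on RAB5 proteins (-0.16, adjusted p = 0.0472 by limma). Only 1 of the 6 probe sets of RIN3 passed, with log2 fold changes from -0.41 to 0.20 over the 6. Its call was not followed in the left-out fits. RABGEF1 lost its call without LP-1 replicates 1, 2 or 3 or LP-1/Cfz replicate 2 (adjusted p from 0.0509 to 0.0738 by limma), and TRAPPC3 without LP-1 replicate 3 (0.0576).

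Among 34 GAP genes, 5 rose and 3 fell. TBC1D4, also called AS160, restrains the RAB10-dependent delivery of glucose transporters to the surface, and was -0.13, -0.22 and -0.25 on the LP-1/Cfz arrays against 0.54, 0.54 and 0.55 on the LP-1 arrays. Its log2 fold change was -0.74 (SE 0.05, adjusted p = 6.56e-05 by limma), with both probe sets lower. TBC1D17 (-0.41, from 1 probe set) and TBC1D12 (-0.24) fell as well. TBC1D9 (0.57), TBC1D14 (0.45), TBC1D16 (0.39), TBC1D9B (0.31) and TBC1D1 (0.24), the paralogue of TBC1D4, rose. TBC1D14, which acts on RAB11 and in autophagy, was read by 1 probe set. TBC1D16 gave 0.13 with the median of its probe sets on each array and then did not pass (adjusted p = 0.251 by limma). This median can fall on different probe sets in the 2 lines. Of the 5 probe sets of TBC1D1, 0 passed over all probe sets. As a gene, TBC1D1 held its call in 1 of 6 left-out fits, the one without LP-1/Cfz replicate 3, with adjusted p up to 0.142. TBC1D12 held in the one without LP-1/Cfz replicate 2, with adjusted p up to 0.150.

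Among 51 effector genes, 8 rose and 4 fell. The RAB11 effectors of the FIP family, which link recycling endosomes to motors, gave 3 genes that rose, 1 that fell and 1 that did not pass. RAB11FIP1 was -0.61, -0.54 and -0.65 on the LP-1/Cfz arrays and 0.29, 0.31 and 0.39 on the LP-1 arrays, a log2 fold change of -0.93 (SE 0.06, adjusted p = 3.21e-05 by limma), with 2 of its 3 probe sets lower and a range from -1.69 to -0.08. RAB11FIP5 rose by 0.64 on its 1 probe set, RAB11FIP2 by 0.37 on 2 of 2, and RAB11FIP3 by 0.35 with 1 of 3 passed. RAB11FIP4 gave 0.14 (adjusted p = 0.135 by limma). MYO5B, a myosin that carries RAB11 endosomes, rose by 0.49, but gave 0.15 without _x_at and _s_at probe sets and then did not pass (adjusted p = 0.268 by limma).

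EHBP1L1, an effector of RAB8 and RAB10 proteins (0.49), and OCRL, an inositol phosphatase that binds several RAB proteins (0.42), rose. APPL2, an effector of RAB5 (-0.30), RILPL2, which binds LRRK2-phosphorylated RAB proteins (-0.28), and EEA1, the early endosome tether (-0.21), fell. EEA1 held its call in 0 of 6 left-out fits, those without LP-1 replicates 1, 2 and 3 and LP-1/Cfz replicates 1, 2 and 3, with adjusted p from 0.0645 to 0.143 by limma. APPL2 held in the one without LP-1/Cfz replicate 2, with adjusted p up to 0.0931 in the others.

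**Figure D4:**
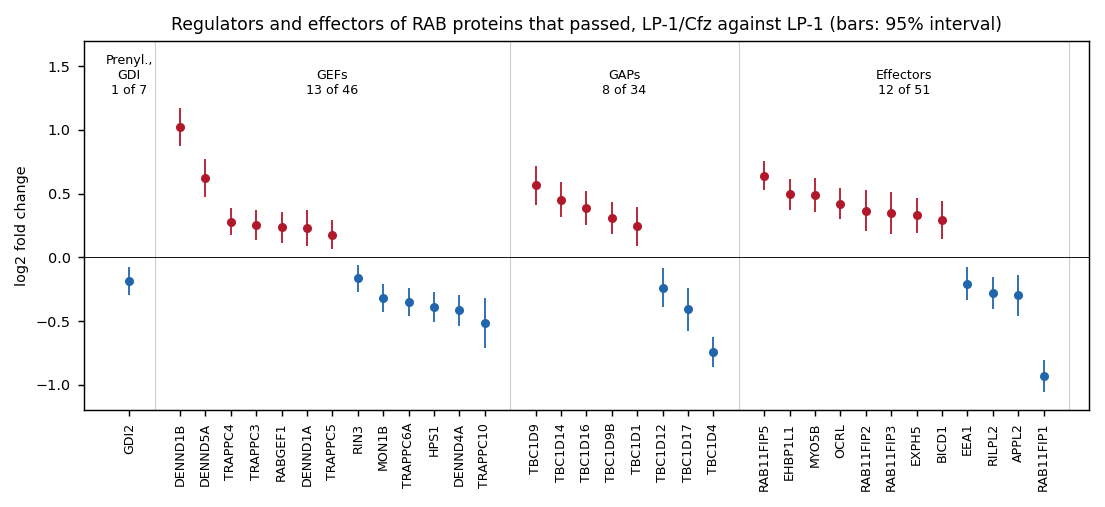
Log2 fold change (y axis) of the 34 regulators and effectors that passed, LP-1/Cfz against LP-1, grouped by role with the number passed of those measured. Points are limma estimates, bars are 95% confidence intervals, and red and blue are higher and lower. DENND1B at 1.02 and RAB11FIP1 at -0.93 are the ends of the range.

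Positions on the chromosomes were set beside the values, since neighboring genes can move with a member. RAB39B and RAB9B both lie on the X chromosome. Of the 10 nearest measured genes of RAB39B, 5 on either side, 6 rose, with a mean log2 fold change of 0.27, and of those of RAB9B 4 rose, with a mean of 0.25. Over the X chromosome, 161 of 691 other genes rose and 41 fell, with a median of 0.08. The 5 RAB genes there gave 0.92 (RAB39B), 0.42 (RAB9B), 0.21 (RAB33A), 0.0044 (RAB40A) and -0.04 (RAB9A). Near RAB35 on chromosome 12, 4 of 10 neighbors fell, with a mean of -0.16. Over that chromosome, 166 of 1034 other genes fell and 98 rose, with a mean of -0.0078. Near RAB36 on chromosome 22, 2 of 10 fell, with a mean of -0.30. The RAB36 neighbors include the immunoglobulin lambda or lambda-like genes IGLL5, IGLC1, IGLJ3 and IGLL1. Of 459 other genes on chromosome 22, 56 fell and 21 rose, with a mean of -0.03. Near RAB3B on chromosome 1, 3 of 10 rose, with a mean of 0.10. Of 1925 other genes on chromosome 1, 147 rose and 134 fell, with a mean of 0.02. The neighbors of RAB15, RAB29, RAB30, RAB27A, RAB40B and RAB1A had means from -0.02 to 0.04, and those of RAB6A had a mean of 0.11. The part of the chromosomal region in any of these values was not tested.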

How the data were processed

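The authors deposited log2 values of 54613 probe sets on 6 Affymetrix human genome arrays, 3 of LP-1/Cfz and 3 of LP-1, hybridized with labeled RNA. The submitters' processing notes name RMA, with no version given. Values are centered per probe set on a baseline that no source used here gives. A difference is thus a log2 ratio, and signal over background is unknown. Scale and direction were checked against fold changes the study lists for probe sets of these arrays, and 102 of 102 matched within 0.05 in fold change. The labels and the methods give different serum contents.

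Genes were named from a table of the array's annotation: 41091 probe sets name 1 gene, 1801 several and 11721 none, and 41037 matched RefSeq. The lines were compared by limma 3.58.1 in R 4.3.3 (lmFit, eBayes, no covariate, no filter), with p-values adjusted after Benjamini and Hochberg across every probe set, and across 19775 genes as the mean of the probe sets naming a gene alone. An adjusted p under 0.05 passed. With 3 against 3 arrays an exact two-sided permutation test cannot give a p under 0.1, and the number of arrays limits the precision.

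Members and gene lists were chosen with earlier results of these data known. RAB6C, RAB19, RAB34, RAB41 and RAB44 were listed but no probe set named them alone. Every RAB gene that passed as a gene or on a probe set was named, with values on each array for the 12 largest that passed as genes, and up to 5 regulators per list and direction. Partners of members were named beside them by their known role. Alternatives were renormalization, array weights, a robust fit, left-out arrays, a replicate block, a minimum fold, the median of probe sets and leaving out _x_at and _s_at probe sets. The median was taken on each array over probe sets with separate baselines, so it is not the median of their log2 fold changes. No sample was left out.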

Additional observations from a re-analysis of the deposited data

How the results depend on the processing

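By limma, 26 RAB probe sets, 12 RAB genes and 34 regulator and effector genes passed. Quantile normalization gave 28, 11 and 40, centering on the array median 26, 11 and 32, array weights 29, 14 and 42, and a robust fit 26, 11 and 34. The 2 rescalings moved the median log2 fold change of all genes by -0.0035 and -0.0094. Leaving out 1 array gave 19 to 26 RAB probe sets, 9 to 13 RAB genes and 22 to 33 regulators. Tested against a minimum fold of 1.2, 11 RAB probe sets, 4 RAB genes (RAB3B, RAB39B, RAB15 and RAB27A) and 7 regulators passed. At a fold of 1.7 or more with no test, 6, 2 and 2 were counted. Both counts ask for larger changes by construction. The share of all genes and probe sets passing under each alternative is not given here, so no shift in these counts is read as particular to RAB genes.

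With the replicate number as a block, 24 RAB probe sets, 9 RAB genes and 28 regulators passed, and RAB6A (adjusted p = 0.0671), RAB40B (0.0806) and RAB1A (0.0528) did not. Same-numbered samples had deviations correlated at -0.0487, 0.126 and -0.00556, and differently numbered ones at -0.118 to 0.129. These values cannot tell whether same-numbered samples were prepared together, which the sources used here do not say. With the median of probe sets, 10 RAB genes and 32 regulators passed. Without _x_at and _s_at probe sets, 9 of 48 RAB genes and 25 of 116 regulators passed, and RAB27A and RAB36 were not measured. Beside the block and left-out arrays, RAB40B did not pass with arrays centered on the median (adjusted p = 0.0576), a robust fit (0.0506) or the median of probe sets (0.177). RAB1A did not with quantile normalization (0.0680) or without _x_at and _s_at probe sets (0.117), RAB30 did not with the median (0.0524), and of the 12 genes those that did not pass against a minimum fold of 1.2 were RAB9B, RAB29, RAB6A, RAB40B, RAB1A, RAB36, RAB30 and RAB35.

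RAB3B, RAB39B, RAB15, RAB9B, RAB29, RAB36, RAB30, RAB35 and RAB27A passed in all 6 fits that left out an array. None of these, nor RAB6A, RAB40B and RAB1A, changed direction under any alternative run.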
